A study of Homo sapiens with 8 samples.

Results

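The 7 genes TSPYL5, ZNF585A, CAT, CHCHD2, LINC02864, PAX8-AS1 and NLRP2 differed between whole genotypes of stem cell-derived islet cells, whichever vector the cells carried. All but PAX8-AS1 were near-absent in at least 1 genotype and on in another. PAX8-AS1 was on in wild type (WT) and reduced, but still detected, in the knockouts (KO). The 7 were picked by that pattern from earlier results of the same count table, 7 of the 38592 genes listed there, so their differences between genotypes and between vectors are given as descriptions and no test is read from them. All 7 passed the filter on low counts that left 22184 genes for testing, each through a genotype in which it was on. The pattern does not run from on in WT to off in a KO for all 7: CHCHD2 was near-absent in WT and on in ISL1 KO cells alone.

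The cells descend from H1, a long-established line of human embryonic stem cells, and were labelled ISL1 KO, PAX6 KO, PDX1 KO or WT, where ISL1, PAX6 and PDX1 are homeobox transcription factor genes of islet development. On day 11 of differentiation towards pancreatic islets they received either a vector for ISL1 with blue fluorescent protein (ISL1-IRES2-BFP, here ISL1 OE) or blue fluorescent protein alone (BFP), and RNA was taken on day 18. ISL1 KO and PAX6 KO had 3 libraries with each vector, PDX1 KO had 2 with ISL1 OE and 3 with BFP, and WT had 2 with each. The series calls its replicates biological, and the sources used here do not give the number of clones or lines behind a genotype, so a difference between genotypes and a difference between the lines that carry them cannot be told apart.

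Some genes are known to be active in some human pluripotent stem cell lines and silent in others, and CAT and CHCHD2 have been described as such genes. Many human promoters are rich in the dinucleotide CG, the site at which DNA can be methylated, and methylated CG-rich promoters are typical of silent genes. DNA methylation was not measured in these samples, and its part in the levels below was not tested.

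The 21 libraries held between 40959467 and 66818614 counts and between 24676 and 27281 detected genes. Levels are given as CPM, counts scaled for depth with the trimmed mean of M-values, and levels compared between genes as TPM, which also allow for transcript length. The position of the edits is not given, so RNA levels of the edited genes check the labels in part at most. ISL1 had 61.6 to 84.0 CPM in ISL1 KO and 285 to 484 CPM in WT. PAX6 had 93.5 to 286 CPM in PAX6 KO and 144 to 235 CPM in WT. PDX1 had 71.6 to 126.1 CPM in PDX1 KO and 74.0 to 95.04 CPM in WT. ISL1 levels did not separate the vectors in any genotype. With ISL1 OE they were 61.6, 73.1 and 84.0 CPM in ISL1 KO and 326 and 313 CPM in WT. With BFP they were 64.7, 66.0 and 72.0 CPM in ISL1 KO and 285 and 484 CPM in WT. These levels thus do not check the vector labels, and the reason was not tested. The summed level of 8 endocrine islet markers was high in every library, at 18300 to 34600 CPM in ISL1 KO, 11100 to 28300 CPM in PAX6 KO, 33500 to 160000 CPM in PDX1 KO and 55900 to 81600 CPM in WT. A pair of libraries stood apart from the rest of their genotypes. In PDX1 KO, the ISL1 OE library labelled replicate 4 correlated with the mean of the other libraries of each genotype at 0.913 for ISL1 KO, 0.922 for PAX6 KO, 0.908 for PDX1 KO and 0.942 for WT, and PAX6 KO ISL1 OE replicate 3 at 0.928, 0.941, 0.935 and 0.924. The other 19 libraries reached 0.975 or more with their own genotype. The 0.975 belonged to PDX1 KO ISL1 OE replicate 2, set against the 3 BFP libraries of its genotype. It correlated slightly better with ISL1 KO and PAX6 KO, at 0.978 each. In bulk RNA, fewer cells that express a gene and less RNA of it per cell cannot be told apart.

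The start regions are shown because reads were also assigned to transcripts, and transcripts of a gene can begin in different places. The RefSeq windows of GRCh38.p14 reach from 250 bases before to 50 bases after a start, and 4 of the 7 genes are shown with ZNF585B, the neighbouring copy of ZNF585A. In the first 4 sequences each CG dinucleotide is in capitals. The CAT window, chr11:34438684-34438983 on the plus strand, holds 20 CGs. The CHCHD2 window, chr7:56106427-56106726 on the minus strand, holds 26. The ZNF585A window, chr19:37172646-37172945 on the minus strand, holds 17, and the ZNF585B window, chr19:37210487-37210786 on the minus strand, holds 19.
CAT: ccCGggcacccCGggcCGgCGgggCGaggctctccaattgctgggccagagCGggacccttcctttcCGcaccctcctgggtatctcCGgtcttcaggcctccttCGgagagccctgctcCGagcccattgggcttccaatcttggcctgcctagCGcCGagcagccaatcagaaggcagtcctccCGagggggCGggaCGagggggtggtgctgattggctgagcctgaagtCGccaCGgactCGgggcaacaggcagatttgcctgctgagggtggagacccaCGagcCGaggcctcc
CHCHD2: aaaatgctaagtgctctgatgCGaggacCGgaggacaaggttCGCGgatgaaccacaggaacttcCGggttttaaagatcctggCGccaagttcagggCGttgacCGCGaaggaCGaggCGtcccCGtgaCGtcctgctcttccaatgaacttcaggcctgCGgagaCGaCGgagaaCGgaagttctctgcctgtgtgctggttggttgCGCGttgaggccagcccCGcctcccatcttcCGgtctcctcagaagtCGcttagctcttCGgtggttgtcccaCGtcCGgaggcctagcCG
ZNF585A: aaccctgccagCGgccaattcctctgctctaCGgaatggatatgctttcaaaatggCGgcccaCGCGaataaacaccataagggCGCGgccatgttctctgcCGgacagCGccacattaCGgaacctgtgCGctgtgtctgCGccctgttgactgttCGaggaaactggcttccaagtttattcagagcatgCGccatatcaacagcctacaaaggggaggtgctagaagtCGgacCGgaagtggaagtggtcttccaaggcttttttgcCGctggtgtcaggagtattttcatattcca
ZNF585B: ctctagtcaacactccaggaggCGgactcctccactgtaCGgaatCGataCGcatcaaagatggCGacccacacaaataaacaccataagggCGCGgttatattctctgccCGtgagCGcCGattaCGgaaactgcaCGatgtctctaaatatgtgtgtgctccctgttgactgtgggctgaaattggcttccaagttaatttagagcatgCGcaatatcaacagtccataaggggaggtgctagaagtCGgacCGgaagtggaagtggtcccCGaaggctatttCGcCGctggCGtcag
CG was the motif searched, and it reads the same on both strands. Over all 35114 windows of the same length the median was 14 CGs. At least as many CGs as in the window shown were found in 41.2% of them for CAT, 30.1% for CHCHD2, 46.0% for ZNF585A and 42.9% for ZNF585B. These counts are a description of the letters and place the 4 windows in the upper part of a broad middle range. ZNF585A and ZNF585B matched at 237 of 297 aligned bases of these windows (79.8%), although the genes begin 45.4 kb apart.

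NLRP2 has a repeated start region, shown because NLRP2 counts were assigned to transcripts of different copies in the libraries that expressed the gene. Both copies lie on the plus strand, the upstream one at chr19:54965034-54965333 and the downstream one at chr19:54966124-54966423, 1090 bp apart. They differ at 3 of 300 bases, which are in capitals.
NLRP2 upstream: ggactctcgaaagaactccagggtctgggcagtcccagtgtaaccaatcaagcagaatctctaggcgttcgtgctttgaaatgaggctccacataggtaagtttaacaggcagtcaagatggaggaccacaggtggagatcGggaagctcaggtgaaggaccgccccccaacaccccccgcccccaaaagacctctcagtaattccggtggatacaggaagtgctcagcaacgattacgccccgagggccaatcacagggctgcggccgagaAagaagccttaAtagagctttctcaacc
NLRP2 downstream: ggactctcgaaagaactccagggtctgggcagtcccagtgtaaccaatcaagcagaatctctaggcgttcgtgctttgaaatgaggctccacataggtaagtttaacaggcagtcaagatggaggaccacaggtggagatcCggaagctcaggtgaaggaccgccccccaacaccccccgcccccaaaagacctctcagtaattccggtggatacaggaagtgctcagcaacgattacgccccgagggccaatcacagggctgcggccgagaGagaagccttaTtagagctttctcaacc
With positions counted from the 5′ end of the window and the upstream base first, the differences are G142C, A273G and A284T. Each copy holds 12 CGs, a number reached by 53.1% of all windows. PAX8-AS1 has a pair of RefSeq windows as well, with 15 and 32 CGs, numbers reached by 48.9% and 18.9% of windows.

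In WT cells the 7 genes spanned a wide range of levels per transcript length. CAT was highest, at 42.2 to 49.2 TPM, followed by LINC02864 at 18.2 to 20.4 TPM and by TSPYL5 (12.5 to 17 TPM) and ZNF585A (12.1 to 13.8 TPM), whose ranges overlap. PAX8-AS1 had 6.85 to 8.11 TPM, NLRP2 1.51 to 1.92 TPM and CHCHD2 0.247 to 0.424 TPM. CHCHD2, the lowest of the 7 in WT, was the highest of them in ISL1 KO, at 334 to 358 TPM.

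**Figure D1:**
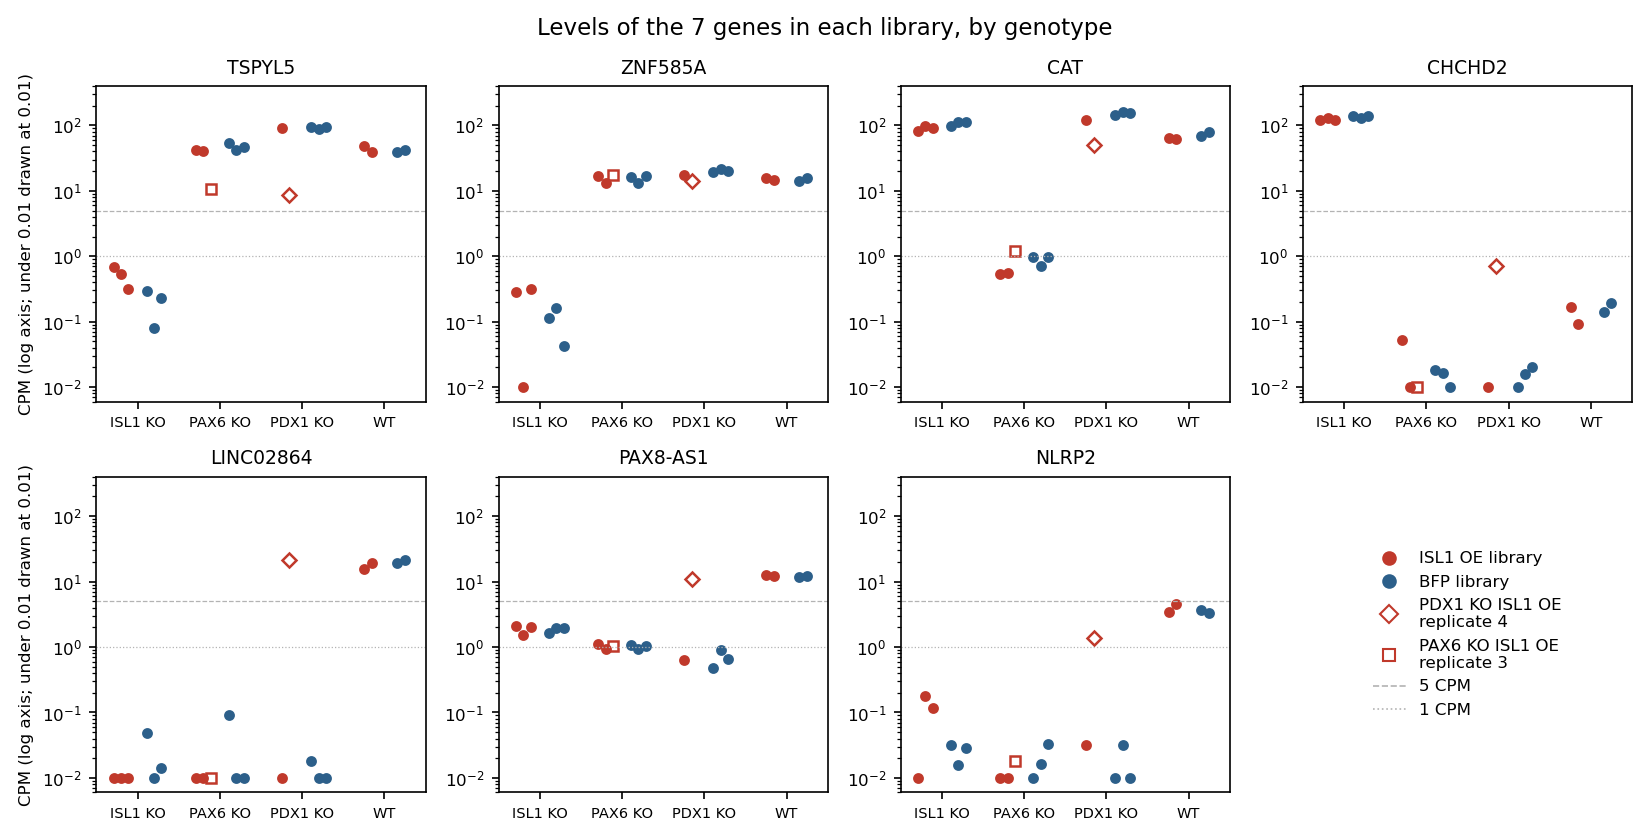
CPM of the 7 genes in each of the 21 libraries on a log axis, by genotype from ISL1 KO to WT, with ISL1 OE libraries in red, BFP libraries in blue and the 2 libraries that stood apart as open symbols; values under 0.01 CPM are drawn at 0.01. TSPYL5 and ZNF585A sit under 1 CPM in all 6 ISL1 KO libraries, CAT between 0.534 and 1.22 CPM in all 6 PAX6 KO libraries, CHCHD2 above 100 CPM in ISL1 KO alone, and LINC02864, PAX8-AS1 and NLRP2 are highest in WT, with the open diamond (PDX1 KO ISL1 OE replicate 4) near WT in CPM for LINC02864 and PAX8-AS1.

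TSPYL5, related to nucleosome assembly proteins, and ZNF585A, a KRAB zinc finger protein of a class that represses the DNA it binds, were near-absent in ISL1 KO. TSPYL5 (ENSG00000180543, chr8:97273474-97277964, minus strand, GRCh38) had a lowest level of 0.0802 CPM, a median of 0.303 CPM and a highest of 0.68 CPM in the 6 ISL1 KO libraries. In the 6 PAX6 KO libraries the lowest, median and highest levels were 10.6, 42.4 and 54.7 CPM. In PDX1 KO it had 89.7 and 8.7 CPM with ISL1 OE and 95.6, 86.8 and 95.1 CPM with BFP, against 48.9 and 39.8 CPM with ISL1 OE and 39.6 and 41.6 CPM with BFP in WT. All ISL1 KO libraries lay below all others, PAX6 KO overlapped WT, and PDX1 KO was above WT except in replicate 4 of ISL1 OE. The lowest PAX6 KO and PDX1 KO values belong to the pair of libraries that stood apart. Without them PAX6 KO spanned 40.8 to 54.7 CPM, which still overlapped WT, and PDX1 KO spanned 86.8 to 95.6 CPM. The ISL1 KO mean was 0.84% of the WT mean, and the fitted log2 fold change of ISL1 KO over WT was −7.04 ± 0.56 (SE).

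ZNF585A (ENSG00000196967, chr19:37106734-37172741, minus strand, GRCh38) had a lowest level of 0 CPM, a median of 0.137 CPM and a highest of 0.315 CPM in ISL1 KO, which is 0 to 19 counts per library. The lowest, median and highest of PAX6 KO were 13.3, 16.8 and 17.3 CPM. PDX1 KO libraries had 17.2 and 14 CPM with ISL1 OE and 19.4, 21.5 and 19.9 CPM with BFP, against 15.9 and 14.8 CPM with ISL1 OE and 14.2 and 15.9 CPM with BFP in WT. ISL1 KO lay apart from every other library. The other 3 genotypes overlapped, PDX1 KO with WT only through replicate 4 of ISL1 OE (14 CPM). Without that library PDX1 KO spanned 17.2 to 21.5 CPM, above all WT libraries and overlapping PAX6 KO. The ISL1 KO mean was 0.999% of the WT mean, and the log2 fold change was −6.71 ± 0.44 (SE).

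The neighbouring gene ZNF585B, the paralog of ZNF585A on the same strand, moved the opposite way in ISL1 KO. It had 5.78, 6.36 and 7.38 CPM as lowest, median and highest level in ISL1 KO, 0.469, 1.04 and 1.58 CPM in PAX6 KO, 0.971, 1.15 and 1.36 CPM in PDX1 KO and 0.659, 0.865 and 0.951 CPM in WT. No ISL1 KO library overlapped any other. ZNF585B was taken as a neighbour and paralog of ZNF585A, though with earlier results of these data known. It rose in ISL1 KO over WT by a log2 fold change of 2.96 ± 0.24 (SE, edgeR quasi-likelihood test, adjusted p = 5.14e-07). In PAX6 KO (0.19 ± 0.22, adjusted p = 0.636) and PDX1 KO (0.44 ± 0.23, adjusted p = 0.256) it did not pass. Under 17 alternative settings the ISL1 KO call stayed, with adjusted p between 5.88e-39 and 4.09e-05. The copies are similar, so reads may have been split between them in the counting. The transcripts that begin in the ZNF585B window printed above held 87.6% of the ZNF585B counts in ISL1 KO, at 4.77 to 6.4 CPM, and 29.6% in WT, at 0.0883 to 0.358 CPM. The ZNF585A window above and a downstream one that overlaps it were both near-absent in ISL1 KO, with at most 0.216 and 0.218 CPM, and held 57.2% and 42.8% of the gene in WT.

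**Figure D2:**
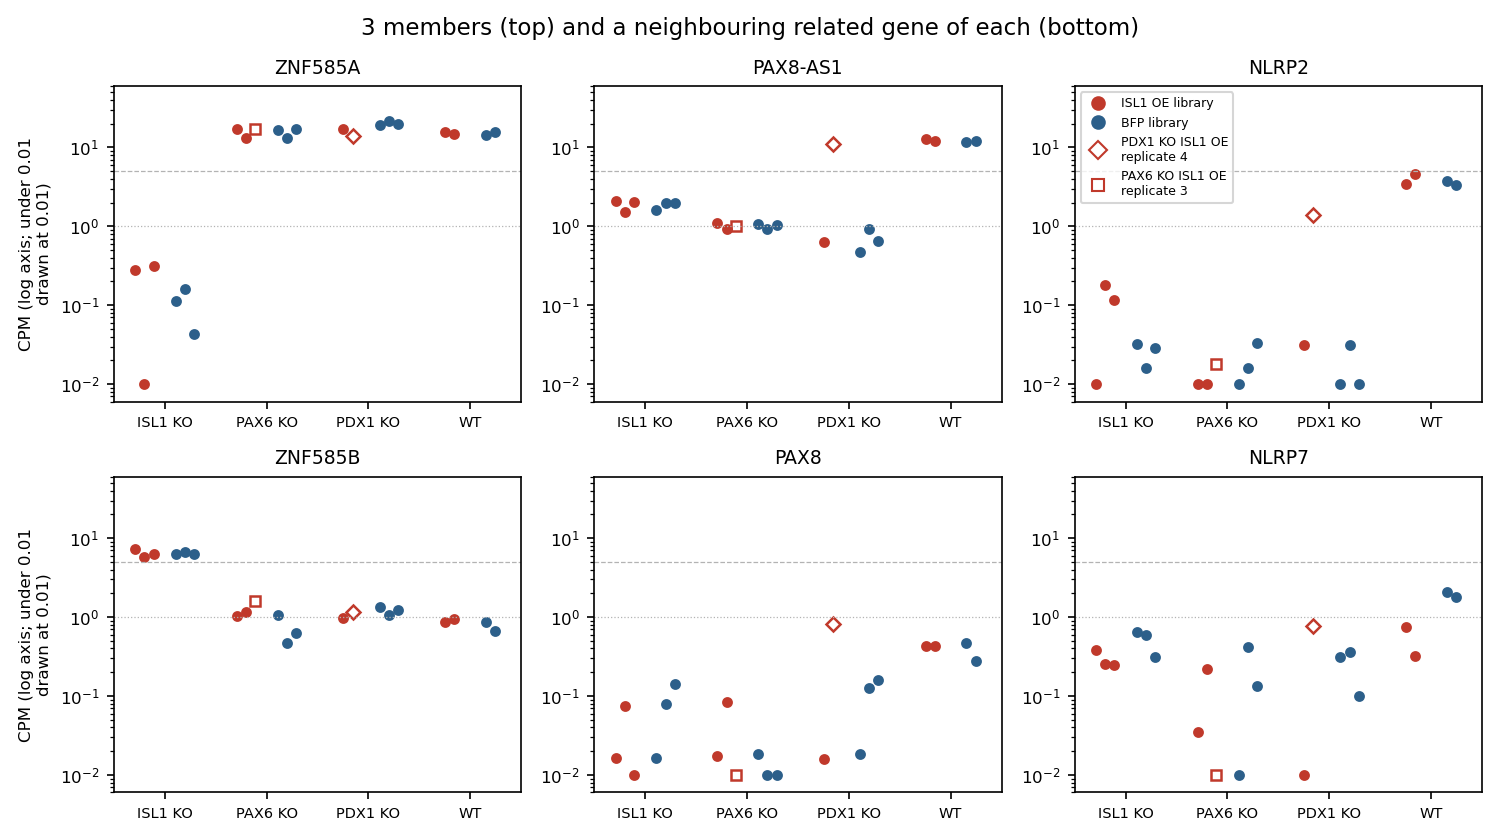
CPM of ZNF585A, PAX8-AS1 and NLRP2 (top) and of a related neighbouring gene of each, ZNF585B, PAX8 and NLRP7 (bottom), in each library on a log axis by genotype, coloured by vector, with open symbols for the 2 libraries that stood apart. ZNF585B is at 5.78 to 7.38 CPM in ISL1 KO, where ZNF585A is at most 0.315 CPM, and PAX8, at 0.275 to 0.476 CPM in WT, is lower in the ISL1 KO and PAX6 KO libraries.

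Of the genes with a metabolic role, CAT encodes catalase, the peroxisomal enzyme that breaks down hydrogen peroxide, and was near-absent in PAX6 KO. CAT (ENSG00000121691, chr11:34438925-34472062, plus strand, GRCh38) had a lowest level of 0.534 CPM, a median of 0.838 CPM and a highest of 1.22 CPM in PAX6 KO, against 65.3 and 61.8 CPM with ISL1 OE and 69.5 and 79.2 CPM with BFP in WT. In ISL1 KO the lowest, median and highest were 82.9, 98.3 and 113.1 CPM. PDX1 KO had 120 and 50.7 CPM with ISL1 OE and 144, 161 and 152 CPM with BFP. The order was PDX1 KO, ISL1 KO, WT and PAX6 KO from high to low, and no pair of neighbours in it overlapped once replicate 4 of PDX1 KO ISL1 OE, at 50.7 CPM the lowest library outside PAX6 KO, was set aside. The WT mean was 83.5-fold the PAX6 KO mean, and 92.2-fold without PAX6 KO ISL1 OE replicate 3. The fitted log2 fold change of PAX6 KO over WT was −6.38 ± 0.27 (SE). A single transcript, CAT-201, which starts in the window printed above, held 99.2% to 99.5% of the CAT counts in every genotype.

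CHCHD2 encodes a mitochondrial protein that supports cytochrome c oxidase and, from the nucleus, can activate a gene for one of its subunits. CHCHD2 (ENSG00000106153, chr7:56101569-56106576, minus strand, GRCh38) had a lowest level of 123 CPM, a median of 129 CPM and a highest of 141 CPM in ISL1 KO, or 7389 to 9541 counts per library. PAX6 KO libraries held 0 to 3 counts (at most 0.0517 CPM), and PDX1 KO libraries held 0 and 28 counts with ISL1 OE and 0, 1 and 1 with BFP. WT libraries held 9 and 5 counts with ISL1 OE and 7 and 7 with BFP, or 0.167, 0.0933, 0.139 and 0.192 CPM. ISL1 KO was alone in expressing the gene at a high level, and the remaining libraries differed only within a few counts, except for the 28 counts (0.716 CPM) of PDX1 KO ISL1 OE replicate 4, above all WT libraries. The ISL1 KO mean was 879-fold the WT mean and the fitted log2 fold change 9.78 ± 0.71 (SE). CHCHD2 has processed copies elsewhere in the genome, so a few counts in the other genotypes may belong to them.

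Noncoding RNA genes were expressed most in WT. LINC02864 is a long intergenic noncoding RNA gene (ENSG00000263711, chr18:73151241-73264480, minus strand, GRCh38). Each ISL1 KO library held 0 to 3 counts, 4 in all 6, and each PAX6 KO library 0 to 5 counts. PDX1 KO libraries held 0 and 841 counts with ISL1 OE and 1, 0 and 0 with BFP, against 828 and 1020 with ISL1 OE and 952 and 785 with BFP in WT. As levels, WT had 15.4, 19, 18.9 and 21.6 CPM, and replicate 4 of PDX1 KO ISL1 OE, at 21.5 CPM, lay within the WT range, while every other KO library was at most 0.0928 CPM. The place of replicate 4 depends on the scale, since in TPM it had 14.6, below the 18.2 to 20.4 TPM of WT. A count of 0 allows up to 3 counts, which is 0.0418 to 0.0824 CPM depending on the library, and no fold is given on so few counts.

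PAX8-AS1 is transcribed opposite to PAX8, the gene of a thyroid and kidney transcription factor, and it was reduced in the knockouts rather than absent. PAX8-AS1 (ENSG00000189223, chr2:113211522-113276581, plus strand, GRCh38) had 1.51, 1.97 and 2.07 CPM as lowest, median and highest level in ISL1 KO and 0.934, 1.03 and 1.1 CPM in PAX6 KO. PDX1 KO had 0.637 and 11.1 CPM with ISL1 OE and 0.477, 0.913 and 0.66 CPM with BFP, against 12.7 and 12.1 CPM with ISL1 OE and 11.6 and 12.2 CPM with BFP in WT. Apart from replicate 4 of PDX1 KO ISL1 OE, just under WT at 11.1 CPM but at 3.38 TPM against 6.85 to 8.11 TPM in WT, the genotypes did not overlap and stood, from high to low, in the order WT, ISL1 KO, PAX6 KO, PDX1 KO. As shares of the WT mean, the means were 15.4% for ISL1 KO, 8.4% for PAX6 KO and, without replicate 4, 5.54% for PDX1 KO. Transcripts that begin in the RefSeq window at chr2:113235277-113235576 held 69.2% of the gene in replicate 4 (7.19 CPM) and 63.4% in WT (6.82 to 7.72 CPM). The libraries mark no strand, so reads of PAX8-AS1 and of PAX8 in the stretch they share cannot be told apart. PAX8 itself was low, with a median of 0.0461 CPM in ISL1 KO, 0.00861 CPM in PAX6 KO and 0.428 CPM in WT, and in PDX1 KO it had 0.0159 and 0.819 CPM with ISL1 OE and at most 0.16 CPM with BFP, the 0.819 CPM being that of replicate 4. Its log2 fold change in PAX6 KO was −4.54 ± 1.01 (SE; edgeR quasi-likelihood test, adjusted p = 0.00552, and between 0.000332 and 0.0441 under 17 alternatives). In ISL1 KO the log2 fold change was −2.93 ± 0.87 (adjusted p = 0.0271), a call lost in 8 of 10 fits that left out 1 library.

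NLRP2 encodes a NOD-like receptor protein best known from the maternal protein complex of the egg. NLRP2 (ENSG00000022556, chr19:54953130-55001142, plus strand, GRCh38) had a lowest level of 0 CPM, a median of 0.0305 CPM and a highest of 0.181 CPM in ISL1 KO, and 0, 0.00808 and 0.0335 CPM in PAX6 KO. PDX1 KO had 0.0318 and 1.38 CPM with ISL1 OE and 0, 0.0315 and 0 CPM with BFP, against 3.42 and 4.55 CPM with ISL1 OE and 3.73 and 3.32 CPM with BFP in WT. No KO library reached WT, and replicate 4 of PDX1 KO ISL1 OE, with 54 counts, was the only one above 0.181 CPM. Its mean was 1.66% of WT in ISL1 KO and, without that library, 0.421% in PDX1 KO; PAX6 KO had 4 counts in all 6 libraries.

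NLRP2 counts were assigned unequally to the copies of its start region. In WT the transcripts that begin in the downstream copy held 84.1% of the NLRP2 counts, at 1.62 to 4.44 CPM with a median of 3.29 CPM, and those of the upstream copy 10.6%, at 0 to 1.01 CPM. In PDX1 KO ISL1 OE replicate 4 the upstream copy held 100% (1.37 CPM) and the downstream copy 0 CPM. That library thus had its 54 NLRP2 counts assigned to the copy with the fewer counts in WT. The copies differ at 3 bases only, so the assignment of reads that lie within them may be uncertain. For ZNF585A the same library had 89.5% of its counts from the upstream window and 10.5% from the downstream one, at 12.6 and 1.47 CPM, against 57.2% and 42.8% in WT. A single transcript of the upstream window, ZNF585A-205, had 8.66 CPM in that library (61.6% of the gene) and 1.79 to 2.64 CPM in WT. Whether the start or another part of the transcripts differed was not tested. All other PDX1 KO libraries had 7.3 to 10.5 CPM of ZNF585A from the downstream window, so the library lay below its own genotype and below WT in this measure. PAX6 KO ISL1 OE replicate 3 did so as well, with 3.48 CPM (20.2% of the gene) from the downstream window, against 5.4 to 8.0 CPM in the other PAX6 KO libraries and 5.52 to 7.12 CPM in WT.

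**Figure D3:**
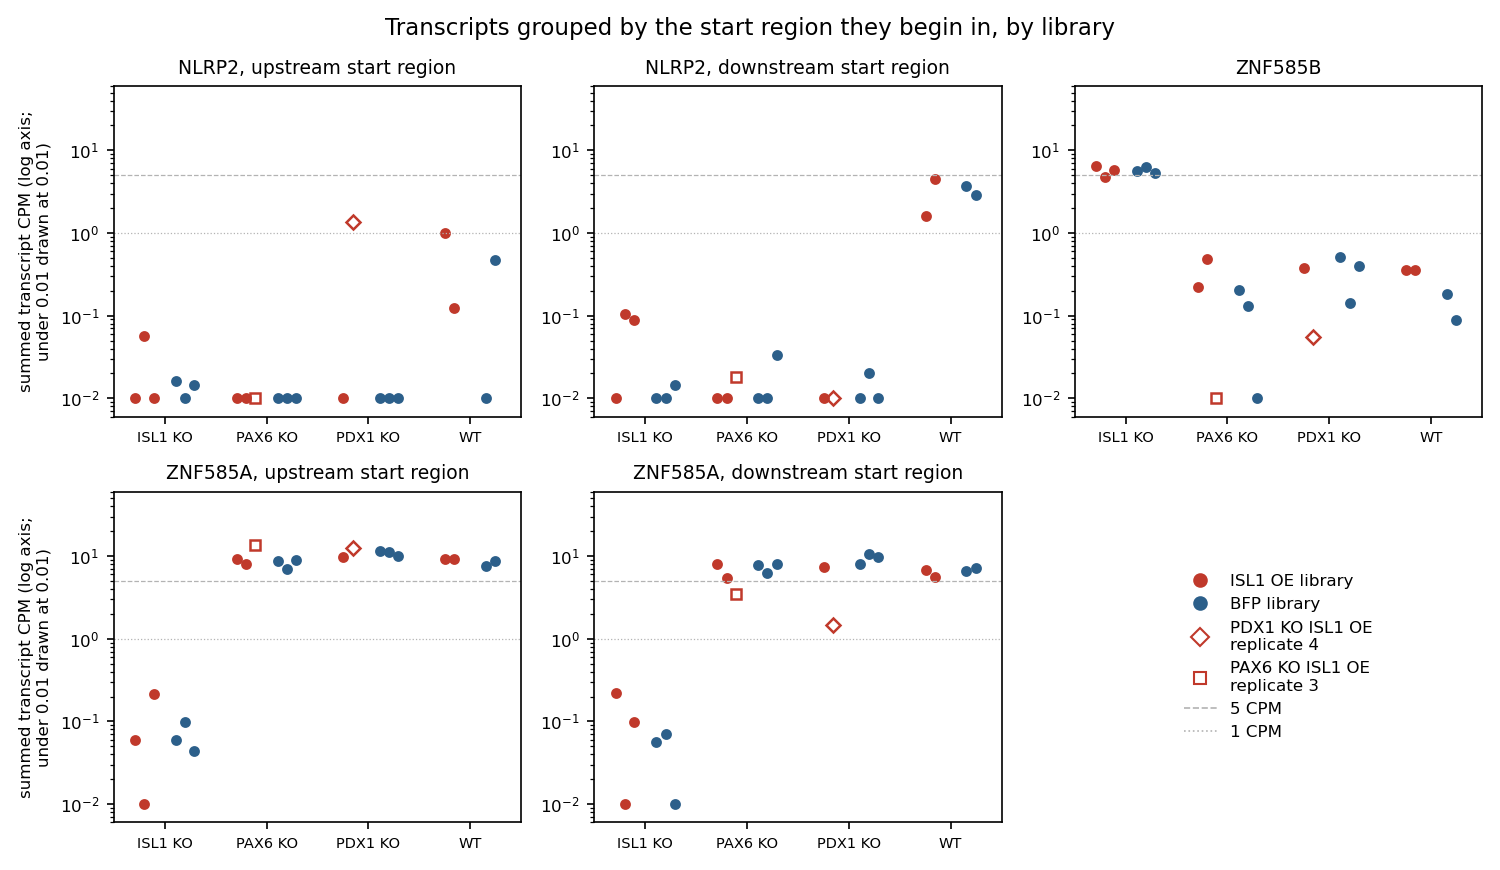
Summed CPM of the transcripts that begin in each start region, by genotype on a log axis, for the upstream and downstream copies of NLRP2, for ZNF585B, and for the upstream and downstream regions of ZNF585A; colours give the vector and open symbols the 2 libraries that stood apart. The downstream NLRP2 copy is at 1.62 to 4.44 CPM in WT and at 0 CPM in PDX1 KO ISL1 OE replicate 4 (diamond), which has 1.37 CPM from the upstream copy.

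Over all 22184 tested genes, 17.3% passed in ISL1 KO against WT, over both vectors at adjusted p under 0.05 in edgeR's quasi-likelihood test, with 6.94% higher (1540 genes) and 10.3% lower (2292 genes). In PAX6 KO 15.4% passed, with 6.53% higher (1449) and 8.88% lower (1971). In PDX1 KO 8.66% passed, with 4.1% higher (910) and 4.56% lower (1011). Since the 7 genes were picked on these comparisons, their own calls say nothing beyond the levels above. Scaling by library size alone moved the median of all genes by 0.15 in ISL1 KO and 0.17 in PAX6 KO on the log2 scale and turned the split to 2078 higher and 1657 lower in ISL1 KO and to 2328 higher and 1293 lower in PAX6 KO. The fitted changes of the near-absent genes are many times these shifts. The 3 comparisons share the 4 WT libraries.

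All-or-none differences of this size were rare. A gene was counted as off at no more than 1 CPM in every library of a genotype, and as on at 5 CPM or more in every library. Of 12095 genes on in WT, 6 (0.0496%) were off in ISL1 KO: TSPYL5, LINC02864, ZNF585A, the amylin gene IAPP, the retinoic acid-synthesising enzyme gene ALDH1A3, and LSP1P5. Of 22126 genes off in WT, 2 (0.00904%) were on in ISL1 KO, CHCHD2 and ZNF585B. Of these 8 genes 4 are among the 7, which follows from how the 7 were picked and is no result. ZNF585B is the neighbour of ZNF585A. In PAX6 KO 7 genes (0.0579%) were off, led by the glucose-6-phosphatase gene G6PC2 and the fatty acid receptor gene FFAR1, the incretin gene GIP and the serotonin transporter gene SLC6A4, with LINC02864, SCIN and ENTPD3, while 4 (0.0181%) were on: CLEC4G, GRM7, SV2C and HELT. CAT missed the limit in PAX6 KO by 1 library, at 1.22 CPM, PAX8-AS1 missed it in ISL1 KO and PAX6 KO, and NLRP2 missed the upper limit, at 3.32 to 4.55 CPM in WT. IAPP, G6PC2 and FFAR1 are known from beta cells, and LSP1P5, SCIN, ENTPD3 and the 4 genes on in PAX6 KO were chosen for naming after their values were seen.

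In PDX1 KO no gene was off in all 5 libraries (0.0%), but without replicate 4 of ISL1 OE 6 genes were (0.0496%): GIP, DNAH8, LINC02864, PAX8-AS1, IAPP and ENTPD3. Replicate 4 had more than 1 CPM of all 6 and 5 CPM or more of 5 of them. It had 96.0 CPM of GIP, 28.9 CPM of DNAH8, a dynein heavy chain gene, 21.5 CPM of LINC02864, 11.1 CPM of PAX8-AS1, 17.6 CPM of IAPP and 2.43 CPM of ENTPD3. In ISL1 KO and PAX6 KO, 6 to 10 genes were off in the rest of a library's genotype, and no library had 5 CPM or more of one. The other PDX1 KO libraries could not show such a gene. With replicate 4 among the rest of their genotype, 0 genes were off there. The same library had 44900 CPM of insulin (INS) and 94700 CPM of glucagon (GCG), against 173 to 371 CPM of INS and 10800 to 17800 CPM of GCG in the other PDX1 KO libraries and 10400 to 15200 CPM of INS and 28800 to 48200 CPM of GCG in WT. In TPM its INS, at 96800, was still above WT (46500 to 75600), while its GCG, at 65100, lay within WT (43200 to 66800). For CHCHD2, near-absent in WT too, it had 0.716 CPM, and for CAT (50.7 CPM) and TSPYL5 (8.7 CPM) it lay below both the other PDX1 KO libraries and WT. In CPM its levels were thus close to WT for LINC02864, PAX8-AS1 and ZNF585A, between PDX1 KO and WT for NLRP2, and outside both for CAT, CHCHD2 and TSPYL5. In TPM, which do not use the library's scaling factor of 0.7066, it lay between the other PDX1 KO libraries and WT for LINC02864, PAX8-AS1 and NLRP2 (0.268 TPM, against 1.51 to 1.92 TPM in WT) and just above WT for ZNF585A (14.4 TPM, against 12.1 to 13.8 TPM).

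**Figure D4:**
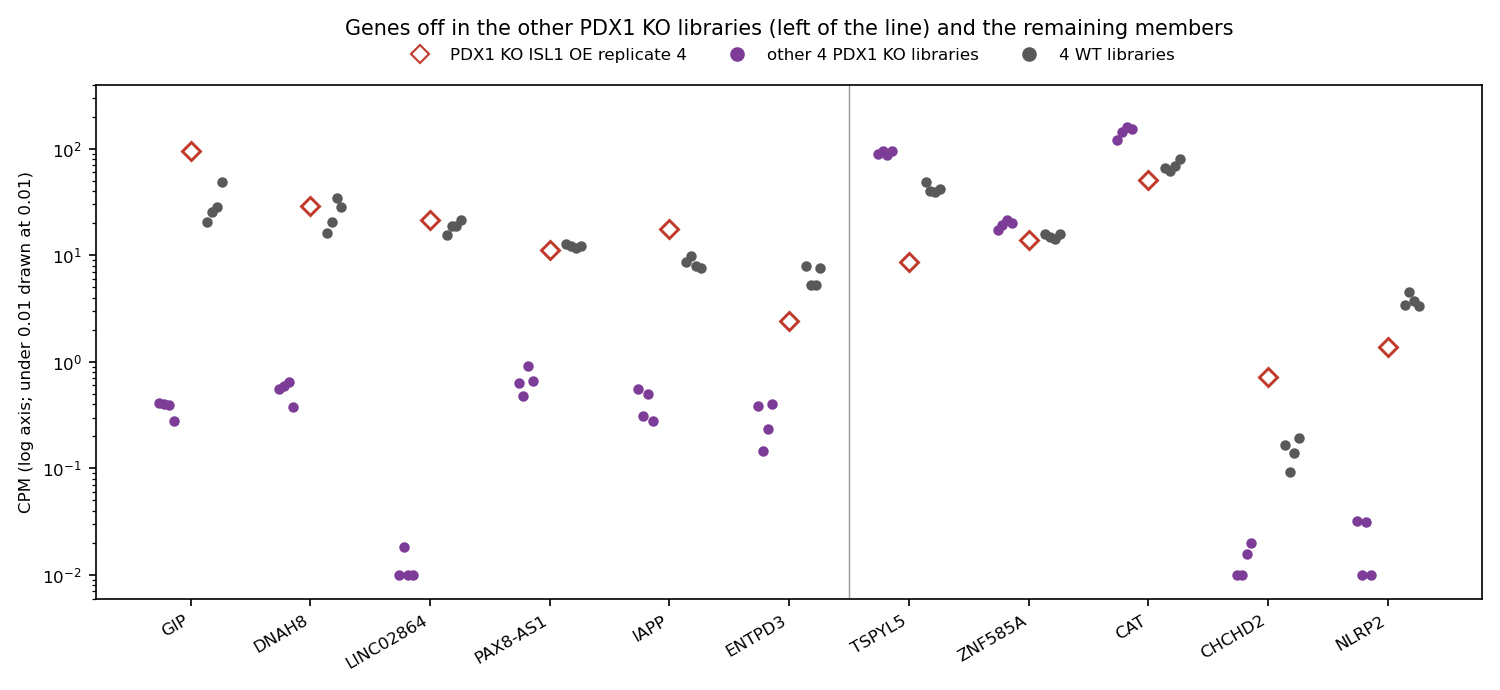
CPM on a log axis in PDX1 KO ISL1 OE replicate 4 (open diamond), the other 4 PDX1 KO libraries (purple) and the 4 WT libraries (grey), for the 6 genes that were off in the other PDX1 KO libraries (left of the line) and for the remaining 5 of the 7 genes (right). The diamond is above 1 CPM for all 6 genes on the left, at 21.5 CPM for LINC02864 and 11.1 CPM for PAX8-AS1, and below both other groups for TSPYL5 (8.7 CPM) and CAT (50.7 CPM).

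The ISL1 vector is set beside BFP for each of the 7 genes where it was on, as a description, since the 7 were picked for a level that held with either vector. In WT, where 6 were on, the fitted log2 fold changes of ISL1 OE over BFP lay between −0.23 and 0.18, with SE of 0.35 to 1.37. In ISL1 KO the log2 fold change was −0.24 ± 0.29 for CAT, −0.12 ± 0.54 for CHCHD2 and 0.02 ± 0.56 for PAX8-AS1 (SE). In PAX6 KO it was −0.61 ± 0.58 for TSPYL5 and 0.02 ± 0.45 for ZNF585A (SE). Of the 7 genes 0 passed in WT, ISL1 KO or PAX6 KO, where 0.0361%, 0.424% and 0.415% of all genes did in edgeR. At an unadjusted p under 0.05 the number was 0 as well. By DESeq2 it was 0 in WT and 1 in each knockout, LINC02864, near-absent there. Nothing is read from these counts. The SEs leave room for changes of more than 1 log2 unit in the low genes.

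In PDX1 KO the values of the vector comparison turned on replicate 4. There 4 of the 7 passed (LINC02864, NLRP2, CHCHD2 and PAX8-AS1) against 14.4% of all genes. In the other PDX1 KO libraries LINC02864, NLRP2 and CHCHD2 were near-absent and PAX8-AS1 was reduced, at 0.477 to 0.913 CPM. The 4 calls are therefore not read as an effect of the vector. Of the genes that were on, CAT had a log2 fold change of −0.83 ± 0.33, TSPYL5 of −0.91 ± 0.66 and ZNF585A of −0.38 ± 0.5 (SE). With either ISL1 OE library left out, the other stands alone and is assumed to vary like the other groups. Then 0 of the 7 passed without replicate 4, against 3.1% of all genes, and without replicate 2 TSPYL5 and CAT were among those that did, which restates how replicate 4 differs from the BFP libraries.

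Most genes beside the 7 on their chromosomes did not pass the test in a given knockout. The 5 tested genes nearest on either side were taken, 70 in all, whose starts lay 13.2 to 8780 kb away. In ISL1 KO 17 of the 70 passed (24.3%, against 17.3% of all genes), 5 higher and 12 lower, with a median log2 fold change of −0.10 against 0.03 for all genes. In PAX6 KO 10 passed (14.3%, against 15.4%), 2 higher and 8 lower, with a median of 0.05 against 0.07. In PDX1 KO 7 passed (10%, against 8.66%), 3 higher and 4 lower, with a median of 0.04 against 0.06. Without PDX1 KO ISL1 OE replicate 4 the PDX1 KO count was 15 (21.4%, against 15.8% of all genes). That library also enters the spread shared by all groups. Without it 25 neighbours passed in ISL1 KO (35.7%, against 23.8% of all genes) and 16 in PAX6 KO (22.9%, against 21.5%). Leaving out 1 library of the genotypes compared at a time gave 8 to 14 in ISL1 KO, with 8 without WT ISL1 OE replicate 2 or WT BFP replicate 1, 10 without either other WT library and 11 without BFP replicate 1 or 3 of ISL1 KO. It gave 5 to 13 in PAX6 KO, with 5 without WT ISL1 OE replicate 2 and 6 without WT ISL1 OE replicate 1 or WT BFP replicate 1. For PDX1 KO it gave 4 to 18, with 18 without PDX1 KO ISL1 OE replicate 2 and 4 without any 1 WT library or PDX1 KO BFP replicate 2.

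Beside TSPYL5, which was near-absent in ISL1 KO, 3 of 10 neighbours passed there (30%, against 17.3% of all genes). The carboxypeptidase gene CPQ fell (log2 fold change −1.36 ± 0.23, adjusted p = 0.000692), as did the syndecan gene SDC2 (−0.62 ± 0.17, adjusted p = 0.0197), and RPL30-AS1 was higher (0.90 ± 0.29, adjusted p = 0.0429), all in edgeR with SE. CPQ also fell in PAX6 KO (−0.83 ± 0.23, adjusted p = 0.021), where TSPYL5 was on, and the phosphatidylserine synthase gene PTDSS1 fell in PDX1 KO (−0.59 ± 0.12, adjusted p = 0.00617). Beside ZNF585A, ZNF568 was the other neighbour to pass, lower in ISL1 KO (−0.60 ± 0.14, adjusted p = 0.00655). No neighbour passed in PAX6 KO or PDX1 KO, where ZNF585A was on and 15.4% and 8.66% of all genes passed. At an unadjusted p under 0.05 in edgeR there was 1 in each, and by DESeq2 1 in PAX6 KO and 0 in PDX1 KO. The calls of SDC2 and RPL30-AS1 were lost in 4 and 8 of 10 fits without 1 library, and that of CPQ in PAX6 KO in 7 of 10.

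Beside CAT the lowest adjusted p belonged to LMO2, a LIM-only transcription cofactor gene of blood and endothelial cells whose start lies 547 kb away. Its median was 2.61 CPM in ISL1 KO, 2.68 CPM in PAX6 KO, 7.22 CPM in PDX1 KO and 41.5 CPM in WT. LMO2 fell in all 3 knockouts, and so also where CAT was on: its log2 fold changes in edgeR were −3.96 ± 0.32 in ISL1 KO (SE, adjusted p = 6.5e-07), −3.95 ± 0.32 in PAX6 KO (adjusted p = 8.04e-07) and −1.78 ± 0.33 in PDX1 KO (adjusted p = 0.00277), the last −2.44 ± 0.29 without replicate 4 of ISL1 OE, which had 32.8 CPM. The summed level of 4 endothelial markers (PECAM1, CDH5, KDR and VWF) was 14.4 to 32.7 CPM in WT. In ISL1 KO it was 4.17 to 15.8 CPM, in PAX6 KO 1.03 to 4.33 CPM and in PDX1 KO 1.46 to 7.16 CPM. The sum was thus highest in WT, with an overlap for ISL1 KO, and its order among the knockouts was not that of LMO2. Of the 4 markers, 1 was below 0.1 CPM throughout each knockout and none in WT. The part of endothelial cells in the LMO2 levels was not tested. CD44, a cell surface receptor gene, fell in PAX6 KO (−1.57 ± 0.23, adjusted p = 0.000265) and in PDX1 KO (−1.21 ± 0.25, adjusted p = 0.00617). PDHX passed in ISL1 KO (−0.42 ± 0.13, adjusted p = 0.0332), a call lost whichever library was left out, and CD44-DT passed there at 0.0332 to 0.301 CPM against 0 in all WT libraries (adjusted p = 0.0149). CAT itself was on in ISL1 KO, and its 3 nearest neighbours on either side did not pass in PAX6 KO, where 15.4% of all genes did.

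Beside CHCHD2, on in ISL1 KO alone, no neighbour was called higher in ISL1 KO by edgeR (1 at an unadjusted p under 0.05, 0 by DESeq2). Of all genes 6.94% were. Its neighbours at lower coordinates begin 13.6 to 155 kb away, but those at higher coordinates begin 8460 to 8780 kb away and are not close to it. The sulfatase-modifying gene SUMF2, 42.6 kb away, fell in ISL1 KO (log2 fold change −0.85 ± 0.16, SE, adjusted p = 0.00197) and in PAX6 KO (−0.74 ± 0.17, adjusted p = 0.00581), and the serine synthesis gene PSPH passed in ISL1 KO (−0.58 ± 0.19, adjusted p = 0.0447, lost whichever library was left out). The unnamed gene ENSG00000189316 passed in PDX1 KO, at a median of 0.24 CPM against 0.0237 CPM in WT (adjusted p = 0.0247, lost in 5 of 9 fits without 1 library). Beside LINC02864 none of 10 passed in ISL1 KO (2 at an unadjusted p under 0.05, 1 by DESeq2), 2 passed in PAX6 KO and 3 in PDX1 KO. Over all genes 17.3%, 15.4% and 8.66% passed, and 10 genes are too few to set against these shares. NETO1, a neuronal receptor-associated gene 396 kb away, rose in PAX6 KO by 0.99 ± 0.24 (adjusted p = 0.0105) and in PDX1 KO by 1.37 ± 0.26 (adjusted p = 0.00329), where LINC02864 was near-absent. Its divergent transcript NETO1-DT passed in PDX1 KO (1.62 ± 0.46, adjusted p = 0.0371), and the cytokine signalling suppressor SOCS6 was lower in PAX6 KO (−0.88 ± 0.27, adjusted p = 0.036) and PDX1 KO (−0.96 ± 0.29, adjusted p = 0.0481). Calls of NETO1-DT and of SOCS6 in PDX1 KO were each lost in 8 of 9 fits without 1 library, and that of SOCS6 in PAX6 KO in 6 of 10.

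Beside PAX8-AS1, reduced in every knockout, PAX8 fell as given above and the interleukin gene IL36G fell in ISL1 KO (log2 fold change −2.04 ± 0.53, SE, adjusted p = 0.0137) and in PAX6 KO (−2.43 ± 0.54, adjusted p = 0.0053) in edgeR. RABL2A was higher in ISL1 KO (0.55 ± 0.15, adjusted p = 0.0197) and PAX6 KO (0.57 ± 0.15, adjusted p = 0.0177), in calls lost in 5 and 3 of 10 fits without 1 library. IL36RN passed in ISL1 KO with a median of 0 CPM against 0.112 CPM in WT (adjusted p = 0.049), lost whichever library was left out. Beside NLRP2, its relative NLRP7, 13.2 kb away, was lower in PAX6 KO (−2.93 ± 0.86, adjusted p = 0.0278, lost in 6 of 10 such fits). Its levels there, 0 to 0.42 CPM, overlapped the 0.317 to 2.06 CPM of WT. In PDX1 KO the log2 fold changes of PAX8, IL36G and NLRP7 turned on replicate 4 of ISL1 OE. With it they were −0.98, −0.89 and −1.71, and without it −3.23, −2.59 and −5.42. Also beside NLRP2, PPP1R12C, a myosin phosphatase subunit gene, was at 16.3 to 23.9 CPM in ISL1 KO, 3.58 to 8.63 CPM in PAX6 KO, 5.73 to 16.1 CPM in PDX1 KO and 4.5 to 6.18 CPM in WT. It rose in ISL1 KO by 1.85 ± 0.29 (adjusted p = 0.000356), and its highest PDX1 KO value was again that of replicate 4 of ISL1 OE. In ISL1 KO EPS8L1 fell (−1.62 ± 0.38, adjusted p = 0.00757), as did the troponin gene TNNT1 (−2.61 ± 0.56, adjusted p = 0.00442), each lost in 1 of 10 fits without 1 library.

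**Figure D5:**
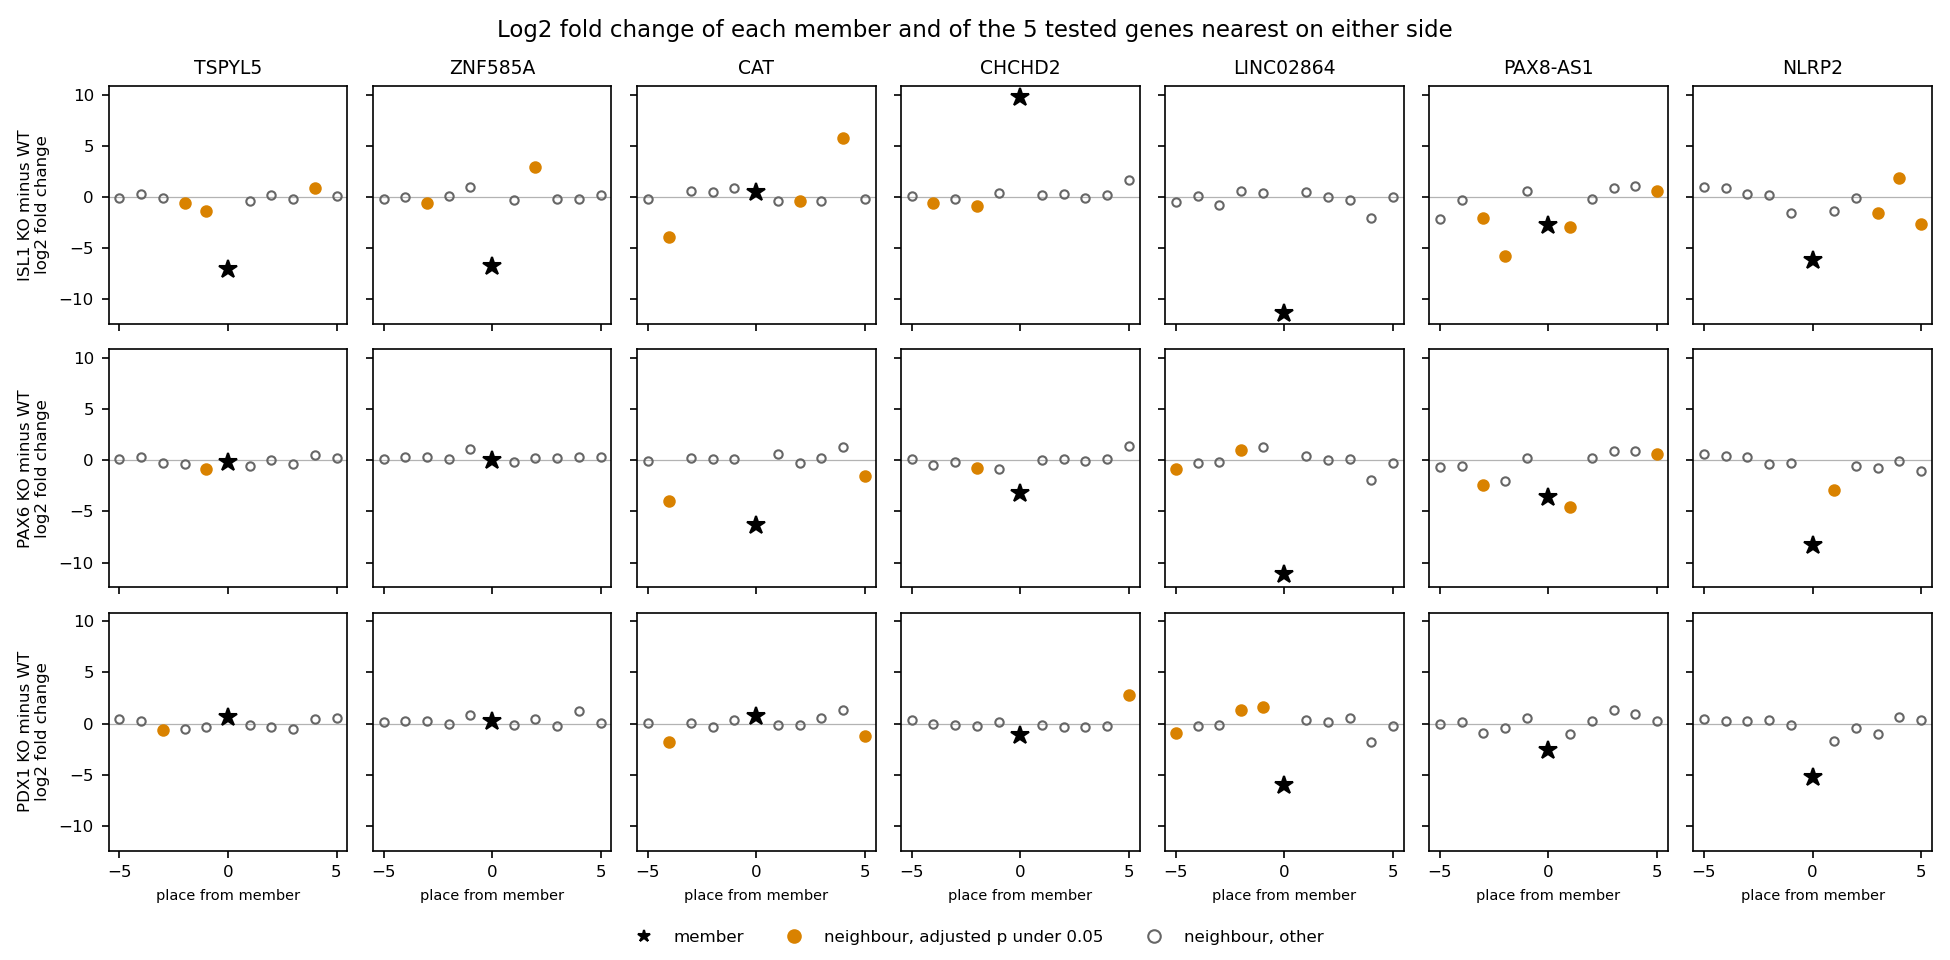
Fitted log2 fold change over WT in ISL1 KO, PAX6 KO and PDX1 KO (rows, all libraries) of each of the 7 genes (stars) and of the 5 tested genes nearest on either side (circles, by order along the chromosome and not by distance). Filled circles have an adjusted p under 0.05 in edgeR. The stars of TSPYL5, ZNF585A and CHCHD2 lie far from their neighbours in ISL1 KO and that of CAT in PAX6 KO, and LMO2, 4 places before CAT, is lower in all 3 rows.

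Of 17 listed relatives of the 7 genes 9 were tested. In ISL1 KO 2 of the 9 passed (22.2%, against 17.3% of all genes), ZNF585B higher and PAX8 lower. In PAX6 KO 3 passed (33.3%, against 15.4%), NLRP1 higher and NLRP7 and PAX8 lower. In PDX1 KO 1 passed (11.1%, against 8.66%), NLRP1, which was higher. NLRP1, a NOD-like receptor gene of inflammasomes, had log2 fold changes of 1.2 ± 0.38 in PAX6 KO (adjusted p = 0.0387, lost in 6 of 10 fits without 1 library, and 0.0643 with the replicate block) and 1.33 ± 0.39 in PDX1 KO (adjusted p = 0.044, lost in 8 of 9, and 0.0673 with the replicate block). Its level in PDX1 KO ISL1 OE replicate 4 was 0.358 CPM against 2.31 to 4.05 CPM in the other PDX1 KO libraries and 0.616 to 1.23 CPM in WT. CHCHD10, the paralog of CHCHD2, did not pass in ISL1 KO (0.00 ± 0.23 on the log2 scale, adjusted p = 1.0), PAX6 KO (−0.38 ± 0.23, adjusted p = 0.306) or PDX1 KO (0.24 ± 0.24, adjusted p = 0.572). TSPYL1, TSPYL2 and TSPYL4 passed in none of the 3 comparisons, with adjusted p of 0.138 or more.

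Genes of the wider metabolism of peroxides and thiols were examined beside CAT. Of 26 hydrogen peroxide, glutathione and thioredoxin genes, all tested, 0 were higher (edgeR; 0 also at an unadjusted p under 0.05 and by DESeq2) and 5 were lower in PAX6 KO (19.2%, against 8.88% of all genes), with a median log2 fold change of −0.25 against 0.07 for all genes. Those were the quinone reductase gene NQO1 (−1.83 ± 0.22, adjusted p = 3.93e-05), the glutathione synthesis gene GCLM (−0.90 ± 0.16, adjusted p = 0.000884), the sulfiredoxin gene SRXN1 (−0.75 ± 0.15, adjusted p = 0.00284), the haem oxygenase gene HMOX1 (−1.41 ± 0.39, adjusted p = 0.0214) and the glutathione reductase gene GSR. None of these 5 encodes an enzyme that is known mainly for breaking down hydrogen peroxide itself. NQO1 acts on quinones, HMOX1 on haem, GCLM and GSR on glutathione and SRXN1 on peroxiredoxins. In ISL1 KO, where CAT was on, 5 were lower as well (19.2%, against 10.3%) and 0 higher (1 at an unadjusted p under 0.05, 0 by DESeq2), with a median of −0.16 against 0.03: NQO1 (−1.29 ± 0.22, adjusted p = 0.000691), the mitochondrial thioredoxin reductase gene TXNRD2 (−2.90 ± 0.68, adjusted p = 0.00756), the glutathione peroxidase gene GPX2 (−1.01 ± 0.25, adjusted p = 0.00935), SRXN1 (−0.49 ± 0.15, adjusted p = 0.036) and HMOX1. In PDX1 KO 3 were lower (11.5%, against 4.56%), SRXN1 (−0.61 ± 0.16, adjusted p = 0.0257), NQO1 (−0.86 ± 0.23, adjusted p = 0.0274) and GPX8 (−0.61 ± 0.18, adjusted p = 0.0432), with a median of −0.04 against 0.06, and without replicate 4 of ISL1 OE 8 were (30.8%, against 8.13%). NQO1 had 39.8 to 62.2 CPM in ISL1 KO, 28.1 to 50.2 CPM in PAX6 KO and 101 to 146 CPM in WT, without overlap. In PDX1 KO it had 24 to 28.3 CPM with BFP and 105 and 275 CPM with ISL1 OE. With library size alone as the scale the list's median was −0.00 for ISL1 KO, −0.09 for PAX6 KO and −0.05 for PDX1 KO, and 1 gene was higher in ISL1 KO. Fits without 1 library lost the calls of SRXN1 in ISL1 KO in 9 of 10, of HMOX1 in PAX6 KO in 4 of 10, and of NQO1, SRXN1 and GPX8 in PDX1 KO in 5, 6 and 7 of 9.

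Of 32 peroxisome genes, all tested, 0 were higher in any knockout in edgeR (2, 0 and 3 at an unadjusted p under 0.05 and 1, 0 and 1 by DESeq2 in ISL1 KO, PAX6 KO and PDX1 KO), and the numbers lower were 3 for ISL1 KO (9.38%, against 10.3% of all genes), 2 for PAX6 KO (6.25%, against 8.88%) and 3 for PDX1 KO (9.38%, against 4.56%). AMACR, a racemase of bile acid and branched fatty acid breakdown, led in ISL1 KO (−1.27 ± 0.15 on the log2 scale, adjusted p = 3.43e-05) and PAX6 KO (−1.48 ± 0.15, adjusted p = 8.54e-06), with 80.8 to 93.8 CPM in ISL1 KO, 66.8 to 89.3 CPM in PAX6 KO and 199 to 239 CPM in WT. It was also lower in PDX1 KO (−0.53 ± 0.16, adjusted p = 0.0485), where 8 of 9 fits without 1 library lost the call, as did the replicate block (adjusted p = 0.0645). The peroxisomal transporter gene ABCD3 was lower in ISL1 KO (−0.62 ± 0.2, adjusted p = 0.0383), PAX6 KO (−0.64 ± 0.2, adjusted p = 0.0351) and PDX1 KO (−0.71 ± 0.21, adjusted p = 0.0438), PEX3 in ISL1 KO (−0.66 ± 0.18, adjusted p = 0.021) and HSD17B4 in PDX1 KO (−0.70 ± 0.19, adjusted p = 0.0264), each lost in 5 to 9 fits without 1 library. The list's medians, −0.14, −0.17 and −0.01 in ISL1 KO, PAX6 KO and PDX1 KO, became 0.02, 0.01 and −0.03 with library size alone, so the sign of the first pair depends on the scale.

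Of 17 tested CHCHD2 partners and genes of the mitochondrial inner membrane, 1 was lower in ISL1 KO, where CHCHD2 was on (5.88%, against 10.3% of all genes), the hypoxia-induced membrane gene HIGD1A (−1.01 ± 0.28 on the log2 scale, adjusted p = 0.0213, lost in 3 of 10 fits without 1 library), and none was higher (1 at an unadjusted p under 0.05, 0 by DESeq2). The median was −0.04 against 0.03 for all genes. With library size alone as the scale 1 was higher and the median was 0.12 against 0.18. In PAX6 KO 0 passed in edgeR (5 at an unadjusted p under 0.05, 1 by DESeq2), with a median of 0.00 against 0.07. In PDX1 KO the cristae gene APOOL was higher (1 of 17, 5.88% against 4.1% of all genes; 0.81 ± 0.17, adjusted p = 0.00738), with a list median of 0.23, and −0.22 without replicate 4 of ISL1 OE.

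Genes of DNA methylation and KRAB-dependent repression were higher in ISL1 KO where they passed. Of 20 tested, 4 were higher (20%, against 6.94% of all genes) and 0 lower in edgeR (0 lower also at an unadjusted p under 0.05 and by DESeq2), with a median log2 fold change of 0.26 against 0.03 for all genes. They were the maintenance methyltransferase gene DNMT1 (0.72 ± 0.14, adjusted p = 0.00221), the heterochromatin protein gene CBX1 (0.65 ± 0.14, adjusted p = 0.00374), UHRF1, whose product guides DNMT1 (1.36 ± 0.44, adjusted p = 0.0432), and the helicase gene HELLS (0.75 ± 0.25, adjusted p = 0.0495). CBX1 was the one gene to pass in PAX6 KO (0.54 ± 0.14, adjusted p = 0.0117), and the de novo methyltransferase gene DNMT3B the one in PDX1 KO, lower there (−1.41 ± 0.38, adjusted p = 0.0281, lost in 5 of 9 fits without 1 library). UHRF1 had 87.3 to 177 CPM in ISL1 KO and 30.4 to 64.4 CPM in WT, without overlap. Its call was lost whichever library was left out, and that of HELLS in 9 of 10 such fits.

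Across the 21 libraries the 7 genes fell into sets by their pattern, given as Pearson correlations of log2 CPM and as description only, since the points share genotypes. TSPYL5 and ZNF585A correlated at 0.942, and each ran opposite to CHCHD2, at −0.962 and −0.96. LINC02864, PAX8-AS1 and NLRP2 correlated with each other at 0.93 to 0.945. CAT stood by itself, between −0.383 and 0.47 with the other 6. Among all tested genes, the 3 most like TSPYL5 were ENSG00000290535 (0.976), ENSG00000285756 (0.972) and LINC02899 (0.951), and the 3 most like ZNF585A were LINC02899 (0.974), ENSG00000285756 (0.962) and ASTE1 (0.956). CAT was most like CACNG5 (0.942), PTGER3 (0.941) and PLIN3 (0.934), and CHCHD2 most like ENSG00000286456 (0.971), IRX3 (0.959) and SOX18 (0.953). LINC02864 was most like ENSG00000288714 (0.97), GNAT3 (0.964) and SBSPON (0.962). PAX8-AS1 was most like NLRP2 (0.936), ENSG00000289605 (0.936) and GAST (0.93), and NLRP2 most like LINC02864 (0.945), ENTPD3 (0.943) and F3 (0.937). With Spearman's rank correlation none of these sets of 3 was shared, except for 1 gene of CHCHD2's.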

How the data were processed

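Per the labels' protocols, RNA came from a Zymo Quick-RNA kit and was amplified with SMART-Seq v4, a chemistry that marks neither strand nor single molecules. The authors deposited gene and transcript estimated counts per library and lane, and TPM values, which are scaled for length and depth, per the file headers. The submitters' processing notes name STAR 1.6.1 and GRCh38, and no source used here names the counting program. Another 12 columns, from 3 libraries that no label matches, were left out.

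Lanes, 4 per library, were summed (lowest correlation between lanes 0.9973) and estimated counts rounded to whole numbers. TPM values were averaged over lanes. Genes were tested with edgeR 4.0.16 (quasi-likelihood F test, TMM scaling, filterByExpr, 1 mean for each of 8 groups, common dispersion 0.114) in R 4.3.3, as the mean of a knockout's vector groups minus that of WT, and as ISL1 OE minus BFP within a genotype, with Benjamini-Hochberg adjustment over all 22184 genes and a threshold of 0.05. The fit was checked on simulated counts. DESeq2 1.42.0 was an alternative. P-values measure the spread between these libraries. Symbols were found for 38568 of 38592 identifiers. Gene coordinates come from GENCODE 29 (34390 identifiers), and start windows from RefSeq, matched by symbol to 5 of the genes of interest; TSPYL5 and LINC02864 have no window here. Transcripts were assigned to a window by their annotated start.

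The 7 genes and all gene lists were chosen with earlier results of these data known. Genes were named by rule: all 7, each neighbour or relative that passed, up to 4 genes per list and comparison, the 3 most alike, up to 5 genes per genotype that were off, the edited genes and CHGA, INS and GCG. In PAX6 KO the same replicate number of both vectors deviated together (correlations 0.176, 0.382 and 0.346), and so it did in ISL1 KO (0.17, 0.099 and 0.307). Each correlated best with its own number, but the labels do not say what an equal number means. With the replicate number as a block in ISL1 KO and PAX6 KO (replicate block), the calls of NLRP1 in PAX6 KO (adjusted p = 0.0643) and in PDX1 KO (0.0673) and of AMACR in PDX1 KO (0.0645) were lost in edgeR. PDX1 KO and WT had no block terms, so the PDX1 KO calls moved only through what the fit shares over all groups.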

Additional observations from a re-analysis of the deposited data

Results flagged for a closer look

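A library was singled out when its gap to the nearest other library of its genotype, divided by the genotype's range, was above Dixon's 95% critical value. This was checked for 19 combinations of gene and genotype. Chance alone marks about 1 in 20 groups where genes are not chosen by their values. The genes marked here were chosen with earlier results of these data known, so that rate is no yardstick for them. Nothing is read from how often a library was singled out. In the 6 PAX6 KO libraries TSPYL5 was lowest in ISL1 OE replicate 3, at 10.6 CPM. In the 5 PDX1 KO libraries the library labelled ISL1 OE replicate 4 was singled out 4 times: it was lowest for TSPYL5, at 8.7 CPM, and highest for LINC02864, at 21.5 CPM, for PAX8-AS1, at 11.1 CPM, and for NLRP2, at 1.38 CPM. These 5 values come from the pair of libraries that stood apart over all genes, and no reason for them was tested.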

How the results depend on the processing

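No named gene that passed changed the sign of its fold change under any alternative run. The split of higher against lower genes in ISL1 KO and PAX6 KO, the peroxisome medians there and the median of the CHCHD2 partners in PDX1 KO did turn, as given with those values. Without the pair of libraries that stood apart (PDX1 KO ISL1 OE replicate 4 and PAX6 KO ISL1 OE replicate 3) the genes passing in ISL1 KO, PAX6 KO and PDX1 KO numbered 9418, 8412 and 7343 (3832, 3420 and 1921 with all libraries), the neighbours 33, 27 and 30 (17, 10 and 7) and the relatives and partners 48, 50 and 40 (15, 11 and 9). Against WT with BFP libraries alone, 1449 genes passed in ISL1 KO and 1476 in PAX6 KO, with 7 and 6 neighbours and 4 and 4 relatives and partners. DESeq2 passed 3063 genes in PDX1 KO, and relatives and partners there numbered 5 both with library size alone and with no filter. With 1 library of the genotypes compared left out the genes ranged over 2161 to 3239 (ISL1 KO), 1878 to 3977 (PAX6 KO) and 832 to 5774 (PDX1 KO), where 5774 is without PDX1 KO ISL1 OE replicate 2, 3662 without its replicate 4 and 832 without WT ISL1 OE replicate 2. Without PDX1 KO ISL1 OE replicate 4, which is outside the other comparisons but enters their shared spread, 5517 genes passed in ISL1 KO and 4980 in PAX6 KO, a setting added after the counts were seen. Neighbours ranged over 8 to 14, 5 to 13 and 4 to 18, and relatives and partners over 6 to 11, 6 to 17 and 0 to 34. For the vector comparison, which is described only, 1 of the 7 genes passed in ISL1 KO and 1 in PAX6 KO with DESeq2, and 1 and 1 without the pair of libraries, all near-absent there, while in PDX1 KO 0 passed without the pair and 0 to 6 with 1 library left out. Off genes numbered 2 in ISL1 KO and 4 in PAX6 KO, and on genes 1 and 0, under limits of 0.5 and 10 CPM; under limits of 2 and 5 CPM they were 21 and 18 off and 8 on in ISL1 KO. Library size alone left 4 off in PAX6 KO, and without replicate 4 there were 6 off in PDX1 KO. Of the 3 genes most like each of the 7, Spearman's correlation shared 0, or 1 for CHCHD2, and leaving out the pair of libraries shared 0 for PAX8-AS1 and NLRP2. Where the cause is not the number of libraries or the limit itself, the cause was not tested. Of 78 results on single genes, those lost were 34 of 63 with BFP libraries alone, 14 with library size alone, 11 with no filter, 2 with DESeq2 size factors, 1 with DESeq2 and 0 without the pair of libraries. The replicate block changed 5, the 3 given with the pairing and, in ISL1 KO, IL36RN (adjusted p = 0.0659) and PSPH (adjusted p = 0.0505) in edgeR, and no other call. In ISL1 KO same-numbered libraries correlated at 0.17, 0.099 and 0.307, each best with its own number, as in PAX6 KO. Depth limits what can be said of genes near 0: up to 3 counts, 0.0418 to 0.0824 CPM, are within what a count of 0 allows, and this covers counting error only.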
